A study of Rattus norvegicus with 3 samples.

Results

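Adenosine is a purine nucleoside that brain tissue releases, or forms outside cells from ATP, when energy runs short, and it acts on G protein-coupled receptors. The A1 and A3 receptors couple to inhibitory G proteins and lower cyclic AMP, whereas the A2A and A2B receptors couple to stimulatory ones and raise it. Surface enzymes convert ATP to AMP and AMP to adenosine, equilibrative transporters carry adenosine across the membrane, and adenosine kinase or adenosine deaminase removes it. In brain, A1 receptors restrain transmitter release, and adenosine kinase of astrocytes is regarded as the main regulator of the adenosine level.

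The genes described here are 10 genes of this system, 4 receptors, 2 enzymes of formation, 2 of removal and 2 transporters, chosen by name from the 30957 gene rows of each file. They filled 11 rows, because Adora3 had 2. The samples were motor cortex of 3 male Sprague-Dawley rats, numbered 12, 24-4 and 33, in which blood flow to the brain had been interrupted and restored (cerebral ischemia and reperfusion) and which then received electroacupuncture at GB20 (Fengchi), a point at the back of the neck. Their time label is 8 weeks, with no starting point stated. All 3 rats form 1 group, so levels, relations within a rat and spread between rats were measured, and neither ischemia nor acupuncture was compared with a control.

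Levels are in FPKM, a fragment count scaled to gene length and library size, with 1 library per rat. The libraries held an estimated 15340000, 17250000 and 13010000 fragments in rats 12, 24-4 and 33, a figure taken from the steps between low values of short loci (up to 400 bp). Each depth was the one at which the largest share of such values corresponded to whole fragments within 0.02. That share was 91.3%, 91.5% and 92.2%, and as it chose the depth it is not separate support for it. A transcript of 1 kb at an FPKM of 1 would thus rest on 15.3, 17.25 and 13.01 fragments. Transcript lengths were not used here, so the intervals below assume 1 kb and cover counting error only. Genes that mark glutamatergic neurons were measured in every rat (4 of 4, with summed FPKM of 1991, 2104 and 1011 in rats 12, 24-4 and 33). Markers of choroid plexus stood far apart between the libraries, with 5 of 5 measured and summed FPKM of 3301, 128 and 13010.

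Adora1 was the highest, followed by Adk, and both lay well above the rest, while 3 of the 10 genes were listed at 0 in every rat. Adora1 and Adk together made up 79.4%, 81.8% and 75.3% of the FPKM summed over the 7 members with values above 0 in rats 12, 24-4 and 33. In rank order of the mean, the genes were Adora1, Adk, Slc29a1, Nt5e, Adora2b, Adora2a and Ada. Of the 6 pairs of neighbours in that order, 4 did not overlap between the rats. Among those 4, Adora2a and Ada were only narrowly apart (lowest Adora2a 1.85, highest Ada 1.76). Their counting intervals for a transcript of 1 kb overlapped in every rat. The ranges overlapped for Slc29a1 and Nt5e, whose order was kept in 2 of 3 rats, and for Adora2b and Adora2a, likewise in 2 of 3.

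**Figure D1:**
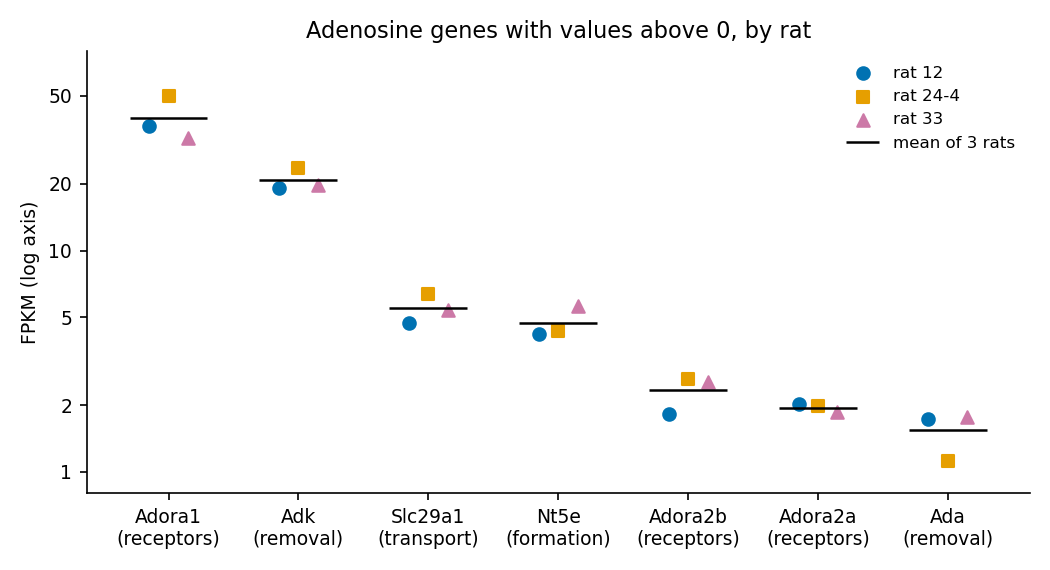
FPKM (log axis) of the 7 adenosine genes with values above 0, with a symbol per rat, a line for the mean of 3 rats and the role of each gene in brackets. Adora1 (32.4 to 50.2) and Adk (19.2 to 23.7) lie above all values of the other genes, which run from 1.12 to 6.36.

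Reference promoter sequences of 9 of the 10 genes were matched by symbol in RefSeq (build GRCr8), and Adora2a was not matched. The windows of 3 genes are shown. Nt5e and Adora2b are textbook targets of hypoxia-inducible factors, whose response ischemia engages, and Adk had the highest FPKM of the enzymes among the 10 genes. Each is the window of 250 bases before the annotated start, 5′ to 3′ on the strand of the gene. Capitals mark the hypoxia response core (ACGTG or GCGTG) and the GC box (GGGCGG) on either strand. The windows lie at chr8:98150675-98150924 (+) for Nt5e, chr10:47439462-47439711 (+) for Adora2b and chr15:3295746-3295995 (-) for Adk, and these coordinates are not those of the deposited files.
Nt5e: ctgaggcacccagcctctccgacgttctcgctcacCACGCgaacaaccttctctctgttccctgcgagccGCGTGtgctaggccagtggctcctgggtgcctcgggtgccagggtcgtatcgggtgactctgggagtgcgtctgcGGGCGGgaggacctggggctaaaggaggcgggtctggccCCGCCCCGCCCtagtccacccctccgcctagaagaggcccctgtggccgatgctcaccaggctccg
Adora2b: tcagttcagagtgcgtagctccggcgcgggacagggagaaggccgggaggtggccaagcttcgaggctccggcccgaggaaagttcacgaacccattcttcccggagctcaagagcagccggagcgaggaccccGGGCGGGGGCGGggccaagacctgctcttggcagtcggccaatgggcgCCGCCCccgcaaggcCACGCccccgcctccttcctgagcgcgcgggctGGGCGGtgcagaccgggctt
Adk: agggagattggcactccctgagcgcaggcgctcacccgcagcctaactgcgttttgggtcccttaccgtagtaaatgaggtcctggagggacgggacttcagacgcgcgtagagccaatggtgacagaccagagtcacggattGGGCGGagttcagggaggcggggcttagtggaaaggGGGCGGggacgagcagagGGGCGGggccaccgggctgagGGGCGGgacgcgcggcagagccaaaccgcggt

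The hypoxia core occurred 2 times in the Nt5e window, 1 time in that of Adora2b and 0 times in that of Adk. The GC box occurred 3, 4 and 4 times in the same order, and 2 of those of Nt5e overlap each other. Over all 9 windows, 4 held a hypoxia core (Nt5e, Adora2b, Ada and Slc29a2) and 6 held a GC box, against 36.7% and 30.5% of 33469 RefSeq promoter windows of this length. The starts used for Adora1, Entpd1 and Slc29a2 lie 995, 48054 and 736 bases from the outermost annotated start. The windows of Nt5e, Adora2b and Adk held 20, 26 and 22 CpG dinucleotides, where the median of all windows was 5. Those of Ada, Slc29a1 and Slc29a2 were above that median as well, with 18, 16 and 12. Those of Adora1, Adora3 and Entpd1, which held neither motif, had 3, 2 and 6. All these are matches of letters and show no binding, and Nt5e, Adora2b and Adk differed in level as described below.

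Among the receptors, Adora1 predominated in each rat. Adora1 (ENSRNOG00000003442, chromosome 13, 51042248 to 51076852, minus strand, Rnor_6.0), which encodes the inhibitory A1 receptor, gave 36.7 FPKM for rat 12, 50.2 for rat 24-4 and 32.4 for rat 33 (39.7 ± 9.28, SD, n = 3). Rat 24-4 was highest, and its counting interval for a transcript of 1 kb, 46.9 to 53.6, did not overlap those of rat 12 (33.7 to 39.9) and rat 33 (29.4 to 35.6). Of the genes above 0 in rat 24-4, 90.5% were lower than Adora1, and in rat 33 86.0% were.

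Adora2a (ENSRNOG00000001302, chromosome 20, 14265252 to 14282873, minus strand), the stimulatory A2A receptor that is enriched in striatal neurons of the indirect pathway, had 2.02, 1.98 and 1.85 in rats 12, 24-4 and 33 (1.95 ± 0.0860). All 3 values lie within the counting interval of rat 12, which is 1.37 to 2.86 for a transcript of 1 kb. Adora2b (ENSRNOG00000002922, chromosome 10, 48569555 to 48586365, plus strand), the low-affinity A2B receptor, had 1.83, 2.63 and 2.53 (2.33 ± 0.437). Its lowest value, in rat 12, has an interval of 1.22 to 2.65, which takes in both other rats.

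Adora1 made up 90.5%, 91.6% and 88.1% of the FPKM summed over the 3 receptors with values above 0 in rats 12, 24-4 and 33. Its FPKM was 18.2, 25.3 and 17.5 times that of Adora2a and 20.03, 19.1 and 12.8 times that of Adora2b. On the log2(FPKM + 1) scale, Adora1 exceeded Adora2a by 3.76 ± 0.30 and Adora2b by 3.60 ± 0.31, in 3 of 3 rats each. The exact sign-flip permutation test gave p = 0.25 for both, the smallest value that 3 rats allow, and an adjusted p of 0.3 over 6 differences, so no difference could pass 0.05. Between Adora2a and Adora2b the difference was 0.09, -0.28 and -0.31 in rats 12, 24-4 and 33 (mean -0.17 ± 0.22, exact sign-flip permutation p = 0.5, adjusted p = 0.5). The counting intervals of both genes for a transcript of 1 kb overlapped in every rat, so the order of these receptors was not resolved.

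Adora3, the A3 receptor, was listed at 0 in all rats in both of its rows (ENSRNOG00000015788, chromosome 2, 208530864 to 208534506, and ENSRNOG00000050743, chromosome 2, 208373154 to 208376803, both plus strand). A value of 0 in these files can be a failed estimate, since Hprt1, a salvage enzyme gene that every cell uses, was also listed at 0 in both of its rows. Of the 748 rows whose name stands in exactly 2 rows, 56.7% were at 0 in all rats, against 31.0% of the 26218 rows with a name of their own. Genes that overlap the Adora3 rows on the same strand were near 0 as well. Among them LOC100363178 had 0.0287 in rat 12 and 0 in the others, Rn60_2_2279.3 had 0.0471 and 0 in the others, Wdr77 had 0.0151 and 0 in the others, and LOC100911453 was listed at 0.

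For the formation of adenosine outside cells, values were available for the last step. Nt5e (ENSRNOG00000011071, chromosome 8, 95968652 to 96012696, plus strand), which encodes the ecto-5'-nucleotidase CD73 that turns AMP into adenosine, had 4.19, 4.34 and 5.60 in rats 12, 24-4 and 33 (4.71 ± 0.776). Rat 33 was highest, but its counting interval of 4.39 to 7.05 overlapped those of rat 12 (3.23 to 5.35) and rat 24-4 (3.41 to 5.44). Entpd1 (ENSRNOG00000014574, chromosome 1, 259739955 to 259819494, plus strand), which encodes CD39, the microglial and endothelial enzyme that turns ATP and ADP into AMP, was listed at 0 in all rats. The other rows within 100 kb of it, 2 in number, were also at 0, although markers of microglia (5 of 5 measured, with summed FPKM of 66.0, 103 and 170 in rats 12, 24-4 and 33) and of endothelium (4 of 5 measured, 62.5, 84.6 and 79.5) were present. No difference between Nt5e and Entpd1 was therefore formed.

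Among the enzymes that remove adenosine, the kinase was higher than the deaminase in each rat. Adk (ENSRNOG00000012325, chromosome 15, 3033495 to 3435888, minus strand), which phosphorylates adenosine to AMP inside cells, had 19.2, 23.7 and 19.8 in rats 12, 24-4 and 33 (20.9 ± 2.44). Ada (ENSRNOG00000010265, chromosome 3, 160115842 to 160139947, minus strand), which deaminates adenosine to inosine, had 1.73, 1.12 and 1.76 (1.54 ± 0.361). Rat 24-4 was thus highest for the kinase and lowest for the deaminase. The interval of Ada in that rat (0.680 to 1.75) overlapped those of rat 12 (1.14 to 2.52) and rat 33 (1.12 to 2.65).

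The FPKM of Adk was 11.1, 21.1 and 11.2 times that of Ada in rats 12, 24-4 and 33. On the log2(FPKM + 1) scale Adk exceeded Ada by 3.11 ± 0.37 and Nt5e by 1.94 ± 0.28, in 3 of 3 rats each. Against Nt5e its FPKM was 4.59, 5.47 and 3.53 times as high. Adora1 exceeded Adk by 0.88 ± 0.18, also in 3 of 3 rats, with FPKM ratios of 1.91, 2.12 and 1.64. Each of these 3 differences had an exact sign-flip permutation p of 0.25 and an adjusted p of 0.3. Transcript levels do not give enzyme activity, and the enzymes act in different compartments.

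**Figure D2:**
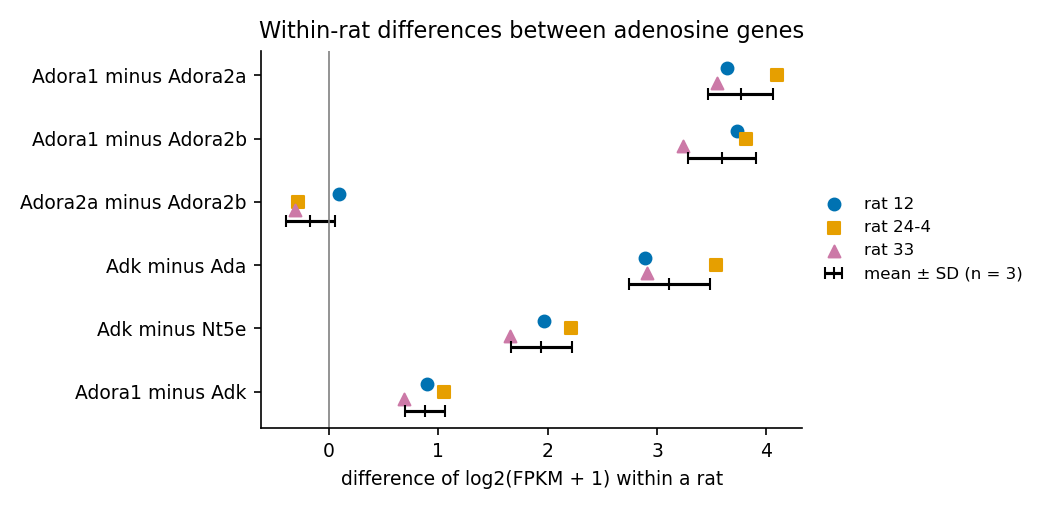
Differences of log2(FPKM + 1) within a rat for 6 pairs of adenosine genes, with a symbol per rat and a bar for the mean ± SD of 3 rats. In 5 pairs every rat lies to the right of 0, and for Adora2a minus Adora2b rat 12 lies at 0.09 and the others at -0.28 and -0.31.

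Of the equilibrative transporters, Slc29a1 was measured and Slc29a2 was listed at 0. Slc29a1 (ENSRNOG00000019752, chromosome 9, 17784468 to 17799005, plus strand), which encodes ENT1, had 4.71, 6.36 and 5.37 in rats 12, 24-4 and 33 (5.48 ± 0.828). The lowest rat has a counting interval of 3.69 to 5.93 and the highest one of 5.22 to 7.66, so they overlapped. Its FPKM was 1.12, 1.47 and 0.959 times that of Nt5e, and Nt5e was the higher of the pair in rat 33 alone. Slc29a2 (ENSRNOG00000020025, chromosome 1, 220400855 to 220407189, plus strand), which encodes ENT2, lies within the Tmem151a row on the opposite strand, which had 0.0262, 0.0233 and 0. Of 15 other rows within 100 kb of Slc29a2, 10 were listed at 0 in all rats, where 38.7% of all 30957 rows were. Another 4 of the 15 had a mean FPKM of at least 1, the highest of them 132. The 0 of Slc29a2 thus stands among both rows at 0 and well expressed rows, and whether the gene is expressed could not be read from it.

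None of the 7 measured genes was called more variable than genes of its level in the limma fit of the spread between rats, where 0.102% of all 13754 genes tested were called at an adjusted p under 0.05 (14 genes). At an unadjusted p under 0.05 the members gave 0 of 7 and all tested genes 5.96%. The smallest limma adjusted p among the members was 0.993, shared by Adora1 and Ada. The test had 3 rats, and a p that misses the threshold does not show that the values were equal.

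On the log2(FPKM + 1) scale the SD between rats was 0.32 for Adora1, 0.16 for Adk, 0.18 for Slc29a1, 0.19 for Nt5e, 0.20 for Adora2b, 0.04 for Adora2a and 0.21 for Ada. The median over these 7 genes was 0.19, and over all genes tested it was 0.32, with the middle 50% between 0.20 and 0.48. Of all genes tested, 49.2% had a smaller SD than Adora1, 15.6% a smaller SD than Adk and 1.27% a smaller SD than Adora2a. This scale compresses the spread of low genes such as Adora2a. As FPKM, the coefficient of variation was lowest for Adora2a (4.41%) and highest for Adora1 (23.4%) and Ada (23.4%), with 11.7% for Adk. The counting interval of Adora2a in rat 12 for a transcript of 1 kb, 1.37 to 2.86, is wider than the whole range of its 3 values. The low figure for Adora2a therefore does not show that it was steadier between rats than other genes.

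**Figure D3:**
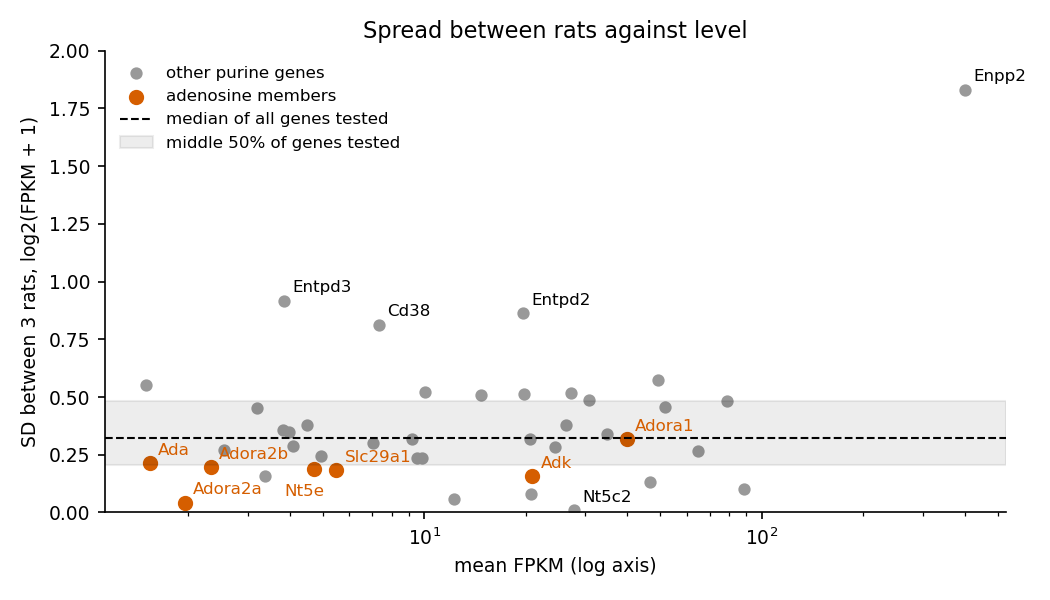
SD between the 3 rats on the log2(FPKM + 1) scale against mean FPKM (log axis) for the 7 adenosine genes and 35 other purine genes, with the median (dashed line) and the middle 50% (grey band) of all genes tested. All 7 adenosine genes lie under the median of 0.32, and Enpp2 stands apart at 1.83.

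The order of the rats differed between genes. Rat 24-4 was highest for Adora1, Adk, Slc29a1 and Adora2b (4 of 7), rat 33 for Nt5e and Ada, and rat 12 for Adora2a, while over all tested genes the highest value fell in rat 24-4 for 34.2% and in rat 33 for 42.0%. The genes of the mitochondrial genome differed in amount between the libraries. With those genes left out and the rest rescaled, values rose by 0.45, 0.22 and 0.34 (log2) in rats 12, 24-4 and 33. Adora1 then had 49.99, 58.6 and 40.9 and kept its order, as did Slc29a1. Under that scaling the highest rat of Adora2b changed to rat 33 and that of Ada to rat 12, the latter also with median ratio scaling, and the highest rat of the other 5 genes did not change under these 2 scalings.

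The members were set beside markers of the cells known to express them. In bulk tissue, fewer cells of a type and less RNA per cell cannot be told apart. Adora1 was lowest in rat 33, where the summed glutamatergic markers were also lowest (1011, against 1991 and 2104 in rats 12 and 24-4), as were 3 of the 4 markers singly, with Neurod6 lowest in rat 12. Astrocyte markers (5 of 5 measured, 3 of them highest in rat 33) summed to 133, 173 and 342 in rats 12, 24-4 and 33, and reactive astrocyte markers (3 of 4 measured) to 333, 1070 and 1976, while Adk, which astrocytes are known for, had 19.2, 23.7 and 19.8. For Nt5e (4.19, 4.34 and 5.60), which meningeal and choroid plexus cells are also known to express, rat 33 was highest. Rat 33 was also highest for 4 of 4 markers of meninges and fibroblasts (summed FPKM 27.3, 27.2 and 91.0) and 5 of 5 of choroid plexus (3301, 128 and 13010). The choroid plexus sum was far lower in rat 24-4 than in rat 12, while Nt5e was similar in both. Rat 33 was likewise highest for 5 of 5 microglia and 4 of 4 oligodendrocyte markers, but for 0 of 4 glutamatergic and 0 of 3 GABAergic ones. Slc29a1 and the endothelial sum (62.5, 84.6 and 79.5) were both lowest in rat 12 and highest in rat 24-4, but the order of the sum came from Cldn5 (33.6, 62.2 and 42.6), and the other 3 markers, Flt1, Ocln and Slco1a4, were lowest in rat 24-4 and highest in rat 33. None of the markers measured in these lists was at 0 in all rats, and their part in the levels of the members was not tested.

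The striatal markers give a background for Adora2a. They were measured in 5 of 5 genes, with summed FPKM of 109, 122 and 81.1 in rats 12, 24-4 and 33, most of it from Ppp1r1b (81.3, 93.7 and 62.2), which cortical neurons also express. Drd2, the D2 dopamine receptor that shares the indirect-pathway neurons with the A2A receptor, had 1.44, 1.75 and 0.891. Drd1, the D1 receptor of the other striatal pathway, had 3.73, 3.91 and 4.33, and Rgs9, a regulator of G protein signalling, had 3.74, 2.87 and 5.71, so that 3 of the 5 markers were lowest and 2 highest in rat 33. Adora2a lay between 1.85 and 2.02 in these rats.

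**Figure D4:**
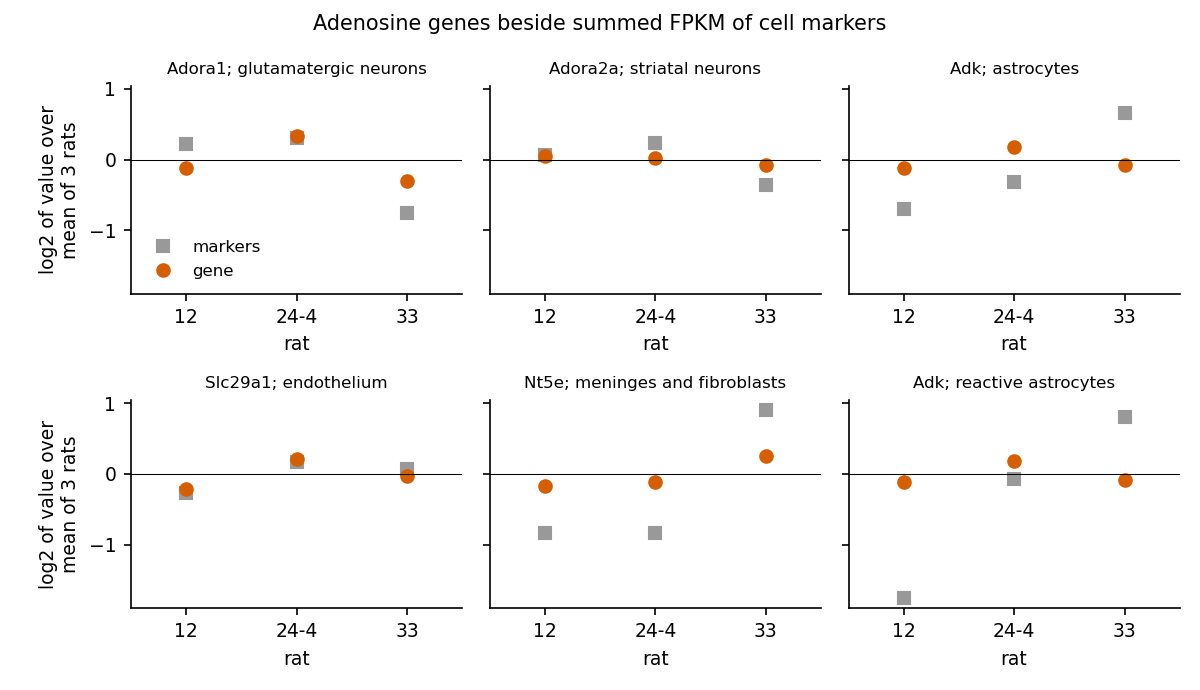
Log2 of the value over the mean of the 3 rats, for an adenosine gene (circles) and for the summed FPKM of a list of cell markers (squares), with the rats on the horizontal axis and a panel per pair. The astrocyte, reactive astrocyte and meningeal sums are highest in rat 33, where Adora1 is lowest and Adk (19.8) lies below its value in rat 24-4 (23.7).

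Other genes that handle purine nucleotides and nucleosides surround this system, and none of them was called with all 3 rats. Of 43 such genes, 42 were matched, 3 of these were listed at 0 in all rats (Hprt1, Art1 and Nt5c1b), and 35 entered the limma fit. At an adjusted p under 0.05, 0 of the 35 passed, against 0.102% of all genes tested, and at an unadjusted p under 0.05, 4 of 35 (11.4%) did, against 5.96%. The test asks for more spread than the prior and does not test for less. The 4 genes were Enpp2, Entpd2, Entpd3 and Cd38, all listed under the surface role, and whether that role held more of them than the others was not tested. Their number ran from 2 to 4 over the alternatives, and without rat 12 Enpp2 was called (limma adjusted p = 0.000176). The median SD of all 35 other purine genes in the fit was 0.35 on the log2(FPKM + 1) scale.

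The list of surface nucleotide breakdown includes Enpp2, which encodes autotaxin, a phosphodiesterase best known for making lysophosphatidic acid rather than for work at the surface. Enpp2 gave 264 FPKM for rat 12, 67.5 for rat 24-4 and 865 for rat 33 (limma adjusted p = 0.231). Choroid plexus is known to express it, and the summed choroid plexus markers had the same order of rats (3301, 128 and 13010), whose part was not tested. Entpd2, an ecto-ATPase of astrocytes that yields ADP, had 8.51, 21.1 and 29.3 (limma adjusted p = 0.707). Rat 12 was lowest for Entpd2, as it was for the reactive astrocyte markers (333, 1070 and 1976), whose part was not tested either.

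Inside cells the highest genes of each role differed less between rats than Enpp2 and Entpd2 did. Nt5c2, a cytosolic nucleotidase that prefers IMP and GMP, had 27.9, 27.6 and 27.7 in rats 12, 24-4 and 33, and Entpd6, a nucleoside diphosphatase of the secretory pathway, had 20.04, 29.98 and 23.2. Ahcyl1, a relative of the S-adenosylhomocysteine hydrolase that binds the IP3 receptor, had 95.3, 82.7 and 88.2. Ak5, a neuronal adenylate kinase, which converts AMP and ATP into ADP, had 61.0, 78.6 and 54.3. Pnp, which splits inosine, the product of adenosine deaminase, had 52.0, 83.2 and 101, and Aprt, which salvages adenine, had 34.4, 61.9 and 58.3. The SDs of Pnp (0.48) and Aprt (0.46) on the log2(FPKM + 1) scale lay above the median of all genes tested (0.32). Those of Nt5c2, Entpd6, Ahcyl1 and Ak5 lay below that median.

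Among transport and release genes, Panx2, a pannexin of neurons, had 51.8, 66.5 and 30.0 in rats 12, 24-4 and 33. Slc29a3, an equilibrative nucleoside transporter of lysosomes, had 6.25, 9.96 and 13.9, above Slc29a1 in each rat. The ranges of these transporters were 6.25 to 13.9 and 4.71 to 6.36, and they overlapped narrowly through rat 12 of the first and rat 24-4 of the second. All these limma tests rest on 3 rats, and the smallest adjusted p among the 35 genes was that of Enpp2.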

How the data were processed

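Messenger RNA libraries of motor cortex from 3 rats of 1 group were analysed. The deposited values are FPKM, which the authors computed per gene from counted and normalized fragments, per the series' design text. The submitters' processing notes name HISAT2 (version 2.0.4), StringTie (version 1.3.0) and, as genome build, Rnor_6.0. Whether strand was used is not given in the sources used here. An abundant transcript in a library lowers its other FPKM. Values were analysed as log2(FPKM + 1), which compresses differences of low genes.

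Spread between rats was tested with limma (version 3.58.1, R 4.3.3). An intercept was fitted per gene with a mean FPKM of at least 1, and its residual variance was compared with a trended, robust prior by F (one-sided), with Benjamini-Hochberg adjustment over all genes tested and a threshold of 0.05. The procedure was tested on data simulated from its own fitted prior, with changes of known size put in. That test cannot show whether the prior suits the measured values. Within-rat differences used an exact sign-flip permutation test, two-sided, adjusted over 6 differences. Of 9 planned differences, 3 were not formed because Entpd1 or Slc29a2 was listed at 0. Alternatives were another pseudocount, other filters, a prior that is not robust, other scalings, and leaving out each rat. Tables were computed in Python 3.11.15 with scipy 1.17.1, pandas 2.3.3 and numpy 2.4.6. The members and lists were chosen with earlier results of these data known. All members were named; of the other purine genes, the 2 with the highest mean in each role were named, and any that passed the test. A further planned marker is not reported here.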

Additional observations from a re-analysis of the deposited data

How the results depend on the processing

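All 6 within-rat differences kept their sign with a pseudocount of 0.1, under both scalings and without each rat in turn. The count of members called variable stayed at 0 under every alternative run, with 0 members also at an unadjusted limma p under 0.05. The number of variable genes in the whole fit, 14, was 23 with a pseudocount of 0.1, 8 with median ratio scaling and 0 with a lower or no filter, a prior that is not robust, or the mitochondrial genome left out. It ran from 0 without rat 24-4 to 104 without rat 12, and the other purine genes from 0 to 1 (Enpp2 without rat 12, limma adjusted p = 0.000176). The cause was not tested. The 3 differences with Entpd1 or Slc29a2 were not run. Depth limits Ada, Adora2a and Adora2b, each with at most 45.4 fragments per kb in any rat.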

Other observations

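Other surface proteins from the lists of purine genes, named after their values were seen, had different orders of rats, and none passed the test. Entpd3, a neuronal ectonucleotidase, gave 5.92 FPKM for rat 12, 4.52 for rat 24-4 and 1.09 for rat 33 (limma adjusted p = 0.778), and was lowest in rat 33, where the summed glutamatergic markers and 3 of 4 singly were lowest as well. Cd38, which breaks down NAD, had, in this order, 3.94, 4.90 and 13.2 (limma adjusted p = 0.812) and was highest in rat 33. Dpp4, a surface peptidase listed under nucleoside breakdown and salvage, had 1.79, 0.523 and 0.497 and its mean was under the filter of the fit. Of the 7 genes listed under surface nucleotide breakdown with values above 0, Enpp2 among them and Dpp4 not, 6 were highest in rat 33. Entpd3 and Dpp4 were highest in rat 12, and of all genes tested, 42.0% were highest in rat 33. The part of the cell markers in these values was not tested.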
